A study of Homo sapiens with 74 samples.

Results

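The genes described here are 10 cytoskeleton genes out of the 28131 listed in each count table: COTL1, the plastins LCP1, PLS1 and PLS3, the bundlers ESPN and FSCN1, the tensins TNS1, TNS3 and TNS4, and VIM. They were selected by gene symbol. COTL1, LCP1, TNS4, ESPN and VIM were picked because they were among the strongest changes of single comparisons in these data, and PLS1, PLS3, FSCN1, TNS1 and TNS3 were added as their relatives. For the 5 picked genes the change that led to their choice is therefore given as a description with no test. The choice does not name the comparison for each gene: in these data the size of change stood out for COTL1 and LCP1 with ENL knockout, for TNS4 with DOT1L knockout and for ESPN with DOT1L knockdown, and for VIM no p-value is given in any comparison.

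Messenger RNA was sequenced in K562 and HEL, established human erythroleukaemia cell lines, to study the part of the DOT1L complex in transcription. K562 libraries came from wild-type cells (control, 2 distinct libraries), from cells labelled DOT1L-/- (DOT1L KO, 3 libraries) and from cells labelled ENL-/- (ENL KO, 3 libraries). HEL libraries came from control cells (2 libraries) and from cells with DOT1L knockdown (DOT1L KD, 2 libraries). The labels give neither the clones behind the knockouts nor the reagent of the knockdown, and the 2 lines were grown in different media. A lane name is given for the wild-type and DOT1L-/- libraries but none for ENL-/-, so a difference of sequencing run cannot be told apart from ENL knockout. Nothing in the labels says that replicates are separate cultures, so the p-values measure only the spread between these libraries, which may be technical.

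Actin-bundling proteins hold actin filaments side by side. Plastins do so in a calcium-regulated way in microvilli and at the edge of leukocytes, fascin does so in filopodia, and espin does so in stereocilia and microvilli. Coactosin-like protein binds single filaments through a domain of the cofilin family, tensins tie actin to the tails of integrins at adhesion sites, and vimentin forms the intermediate filaments of mesenchymal and many blood cells. DOT1L is the methyltransferase of lysine 79 of histone H3, and ENL (gene symbol MLLT1) is a reader of acylated histones in the DOT1L complex.

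Total counts ranged from 15404944 to 29236703 fragments in K562 and from 12151495 to 12811688 reads in HEL. Levels are in CPM, normalised counts on a common library size set with TMM factors. A count of 0 allows up to 3 counts, which was worth 0.101 to 0.244 CPM depending on the library, for counting error only. The biological coefficient of variation, the spread between replicates that edgeR estimates over all genes, was 6.34% in K562 and 1.83% in HEL. The targeted genes were still counted: DOT1L was lower in DOT1L KO (log2 fold change -0.53, SE 0.057) and in HEL DOT1L KD (-1.64, SE 0.064), and MLLT1 was lower in ENL KO (-0.48, SE 0.051). These are counts over whole genes and do not show whether an edited exon was lost. All 10 erythroid markers had counts in every group, with summed levels from 6306 to 6738 CPM in the K562 control and from 6494 to 6619 CPM in the HEL control.

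The tables place the genes on hg38 at chr16:84565598-84618096 (COTL1, minus strand), chr13:46125923-46182324 (LCP1, minus), chr3:142596387-142713663 (PLS1, plus), chrX:115560850-115650859 (PLS3, plus) and chr1:6424776-6460944 (ESPN, plus). FSCN1 lies at chr7:5592805-5606656 (plus), TNS1 at chr2:217799789-217944073 (minus), TNS3 at chr7:47275154-47582144 (minus), TNS4 at chr17:40475828-40501602 (minus) and VIM at chr10:17228210-17237597 (plus). Each count covers the exons that the tables list for the gene. For TNS1 these end at 217944073, whereas the RefSeq gene runs to 218033982, so any exons beyond that point are not counted. VIM-AS1 on the opposite strand shares 641 exonic bases with VIM, and whether strand was used in counting is not given in the sources used here. VIM-AS1 held at most 178 counts in a library. ESPN has a near-identical copy, ESPNP, with 0 to 9 counts, so the split of their reads is uncertain.

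COTL1 and LCP1 are shown with the 250 bases before their start sites, because these actin-binding genes moved in opposite directions in ENL KO, and VIM is shown because its level differed in the same direction in every depleted group. The sequences are from RefSeq (GRCh38.p14), 5′ to 3′ on the strand of the gene, at chr16:84618079-84618328 (minus strand) for COTL1, chr13:46182178-46182427 (minus) for LCP1 and chr10:17227991-17228240 (plus) for VIM. Capitals mark matches on either strand to the TATA box TATAAA, the CCAAT box CCAAT, the GC box GGGCGG, the GATA motif AGATAA and the E-box CAGCTG. Adjoining capitals in COTL1 are neighbouring or overlapping matches.
COTL1: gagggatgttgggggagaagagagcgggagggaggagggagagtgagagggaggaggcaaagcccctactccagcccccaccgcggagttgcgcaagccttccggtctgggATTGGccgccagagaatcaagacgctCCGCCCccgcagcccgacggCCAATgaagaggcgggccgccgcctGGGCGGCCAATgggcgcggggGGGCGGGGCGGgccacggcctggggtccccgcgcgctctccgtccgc
LCP1: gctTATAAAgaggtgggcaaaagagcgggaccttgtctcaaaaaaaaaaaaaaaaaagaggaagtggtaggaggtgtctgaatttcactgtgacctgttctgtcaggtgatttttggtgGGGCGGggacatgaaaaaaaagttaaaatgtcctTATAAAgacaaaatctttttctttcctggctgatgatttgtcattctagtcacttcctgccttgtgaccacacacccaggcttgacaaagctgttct
VIM: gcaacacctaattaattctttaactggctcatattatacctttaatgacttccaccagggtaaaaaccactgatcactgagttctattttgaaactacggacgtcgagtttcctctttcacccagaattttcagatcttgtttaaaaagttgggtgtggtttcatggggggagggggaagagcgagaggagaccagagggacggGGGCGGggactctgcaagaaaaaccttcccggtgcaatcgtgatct
The COTL1 window held 73.2% G and C, 25 CpG pairs, 3 matches to CCAAT and 4 to GGGCGG. The LCP1 window held 41.2% G and C, 2 CpG pairs, 2 matches to TATAAA and 1 to GGGCGG. The VIM window held 46.0% G and C, 8 CpG pairs and 1 match to GGGCGG. Of 35114 RefSeq promoter windows of this length, 10.7% held the TATA box, 32.0% the CCAAT box, 42.6% the GC box, 9.17% the GATA motif and 14.0% the E-box, and the median window held 58.0% G and C and 11 CpG pairs. A match is a run of letters in this window and was not tested as a site.

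The 10 genes differed in their level by library group as well as in their response. Divided by exonic length so that genes can be compared, VIM was the most abundant in the K562 control at 664 CPM per kb, followed by FSCN1 at 499, LCP1 at 97.5, COTL1 at 21.97, TNS4 at 8.62, PLS1 at 7.09, ESPN at 1.22 and TNS1 at 0.598 CPM per kb. PLS3 at 0.094 and TNS3 at 0.0031 CPM per kb rested on a handful of counts in K562. The HEL control held VIM at 659, LCP1 at 169, COTL1 at 134 and PLS1 at 27.3 CPM per kb, then PLS3 at 23.0, TNS3 at 19.9, TNS1 at 17.0, FSCN1 at 16.9, ESPN at 0.460 and TNS4 at 0.078. The ranges of TNS1 and FSCN1 in the HEL control were not compared by a test, and their means lie next to each other. Levels in the 2 lines come from separate tables, one of fragments and one of reads, and are set side by side as a description.

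**Figure D1:**
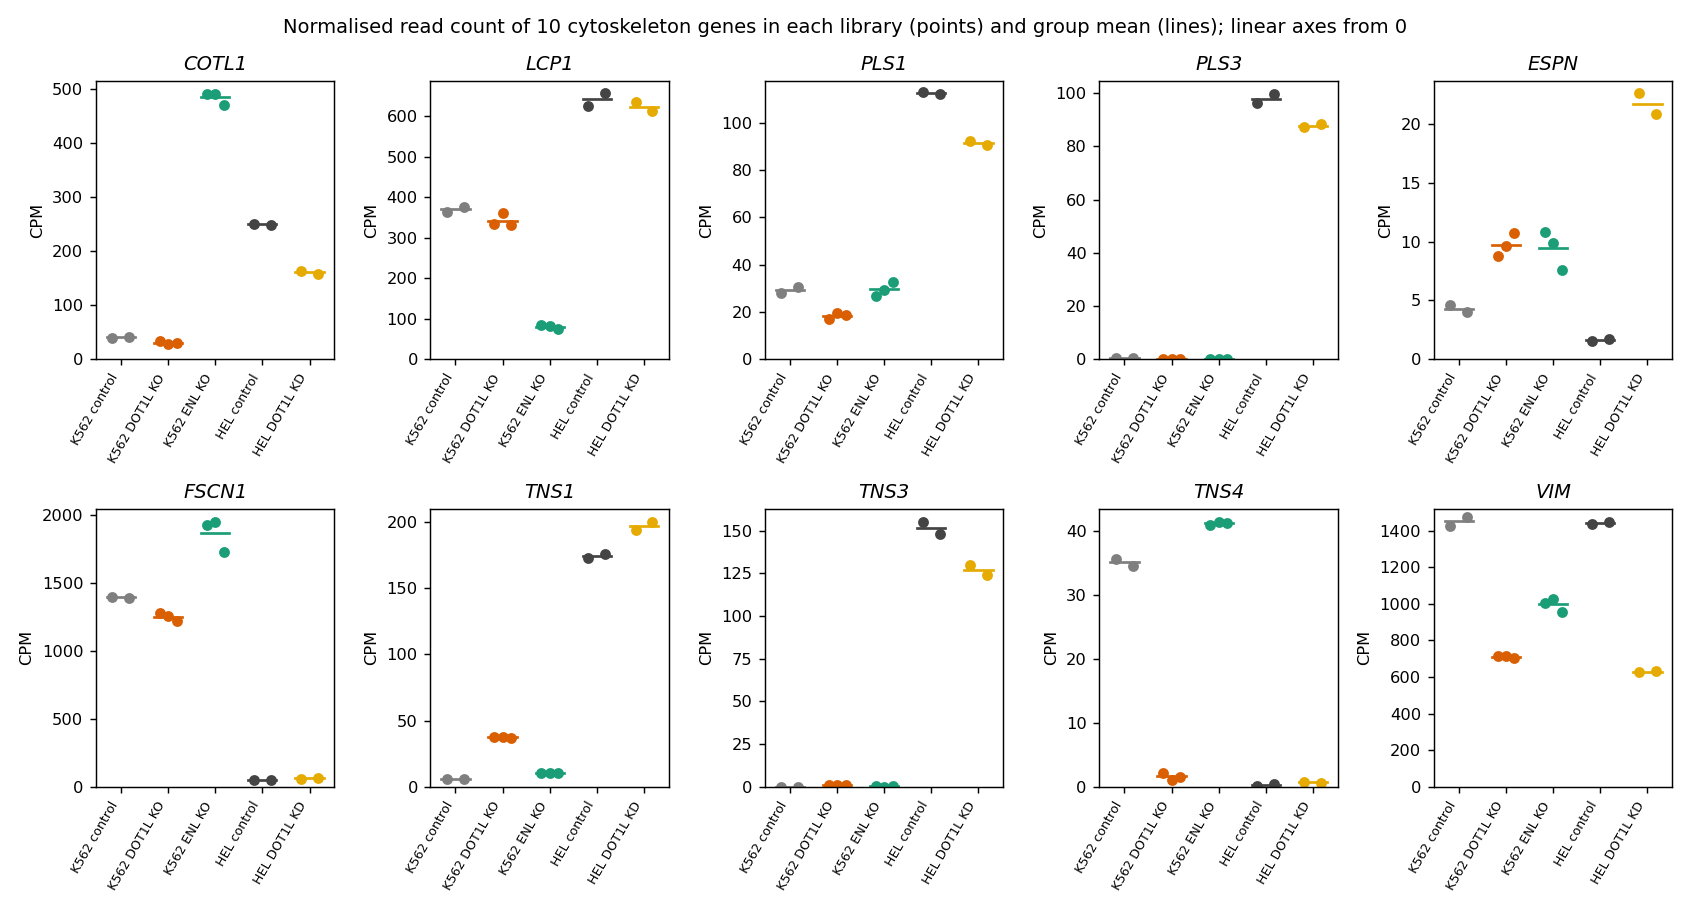
Normalised count of each of the 10 genes in every library, in CPM on linear axes that start at 0; points are libraries and lines are group means. COTL1 sits near 485 CPM in ENL KO against 40.8 CPM in the K562 control, TNS4 is near 0 in DOT1L KO and in HEL, and PLS3, TNS3 and TNS1 are far higher in HEL than in K562.

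A gene was called changed at a Benjamini-Hochberg adjusted p of 0.05 in edgeR's quasi-likelihood test over all genes tested, and log2 fold changes are given with their standard error (SE). In the DOT1L KO, 8 of the 9 genes of the set that were tested were past the threshold (3 higher and 5 lower), beside 51.1% of all 14301 genes (26.9% higher and 24.2% lower). In the ENL KO 7 of 9 were past it (5 higher and 2 lower), beside 41.0% of all genes (18.8% higher and 22.2% lower). DOT1L KO against ENL KO gave 8 of 9 (3 higher and 5 lower), beside 60.2% (31.8% higher and 28.3% lower). In HEL 8 of 9 were past it (3 higher and 5 lower), beside 55.0% of 12635 genes (27.0% higher and 28.0% lower). Since the 5 picked genes entered for their size of change, these shares say nothing about the group.

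PLS3 was not tested in K562 and TNS4 was not tested in HEL, because their counts were below the filter. TNS3 passed the filter in K562 through its counts in DOT1L KO, so its K562 calls, which the counts above hold, are no support. Of the other relatives tested in K562, PLS1, FSCN1 and TNS1 were past the threshold in DOT1L KO and between the knockouts, and FSCN1 and TNS1 in ENL KO. In HEL all 5 relatives were past it. The median size of change of the tested genes of the set, which follows from the choice of 5 of them by size and is given as a description, was 1.03 on the log2 scale in the DOT1L KO, 0.77 in the ENL KO and 0.30 in HEL, where the medians over all genes were 0.29, 0.25 and 0.24. In HEL, 49.1% of all calls were higher with TMM scaling and 61.5% with upper-quartile scaling. The DOT1L KO and the ENL KO were compared with the same 2 control libraries, so their fold changes are not independent of each other.

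**Figure D2:**
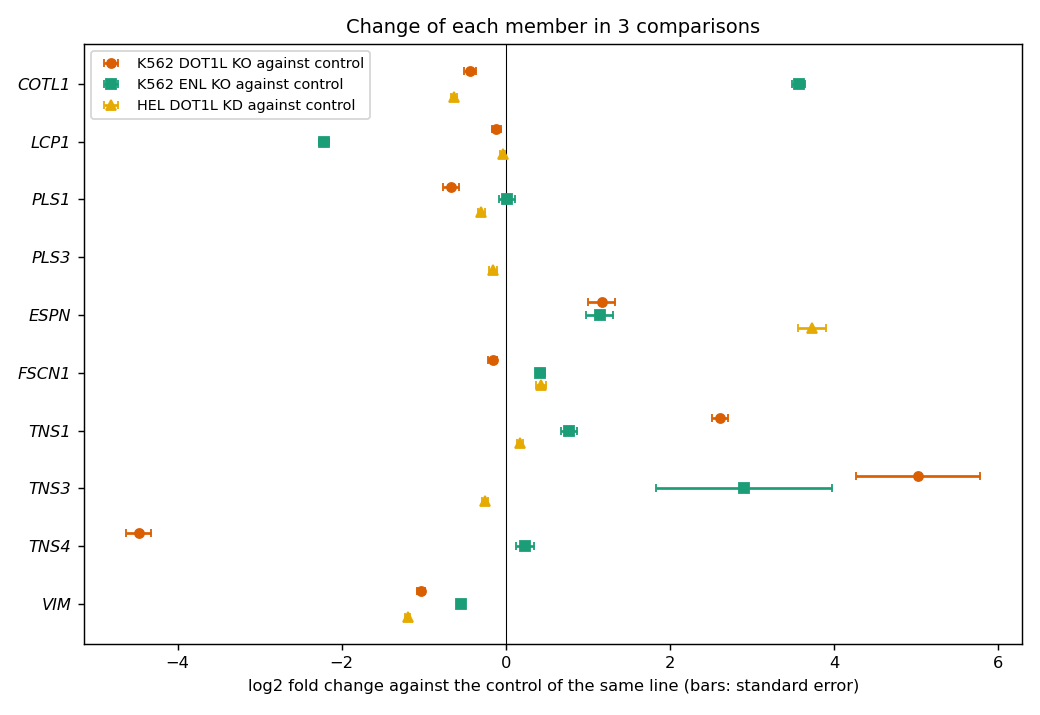
Log2 fold change of each member in the DOT1L KO and ENL KO of K562 and in the DOT1L KD of HEL, each against its own control, with bars of 1 SE; members without a fit in a comparison have no point. TNS1 reaches 2.61 in the DOT1L KO, COTL1 3.57 in the ENL KO and ESPN 3.73 in HEL; the TNS3 fits in K562 rest on a few counts.

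Among the plastins, LCP1, the plastin of leukocytes, was lower in ENL KO and not called in DOT1L KO. LCP1 was at 363 and 376 CPM in the K562 control, at 333, 361 and 330.5 CPM in DOT1L KO and at 83.2, 81.0 and 75.1 CPM in ENL KO. All ENL KO libraries lay below all other K562 libraries, whereas the highest DOT1L KO library lay just under the lower control library. The difference in ENL KO, which is part of why the gene was picked, was -2.21 on the log2 scale (SE 0.061) and ranked 136 by size among the 2258 lower genes with at least 5 CPM. In DOT1L KO the difference was -0.11 (SE 0.059), with an adjusted p of 0.127 in edgeR's quasi-likelihood test. HEL held LCP1 at 626 and 658 CPM in the control and at 634 and 613 CPM in the DOT1L KD, where the groups overlapped. The HEL difference was -0.04 (SE 0.030, adjusted p 0.255, edgeR), turned to 0.033 under upper-quartile scaling, and was called without control replicate 1 (-0.08, adjusted p 0.0120, edgeR).

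PLS1, the plastin of intestinal microvilli, fell with DOT1L loss in both lines. It was at 28.1 and 30.4 CPM in the K562 control, at 16.8, 19.7 and 18.7 CPM in DOT1L KO and at 26.8, 29.2 and 32.6 CPM in ENL KO. DOT1L KO lay below the control without overlap, and the ENL KO libraries spanned the control values. The log2 fold change was -0.67 in DOT1L KO (SE 0.099, adjusted p 8.23e-05, edgeR) and 0.01 in ENL KO (SE 0.099, adjusted p 0.948, edgeR), and DOT1L KO against ENL KO gave -0.68 (SE 0.091, adjusted p 2.15e-05, edgeR). In HEL, PLS1 was at 113 and 112 CPM in the control and at 92.3 and 90.7 CPM in the DOT1L KD, again without overlap. The HEL change was -0.30 (SE 0.046, adjusted p 2.33e-07, edgeR).

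PLS3, the plastin of non-haematopoietic tissues, was nearly absent from K562. It held 6 and 11 counts in the K562 control, 1, 6 and 3 counts in DOT1L KO and 0 counts in each ENL KO library. Over the group, the control was 2.90-fold above DOT1L KO in CPM (95% exact interval of the counts 1.25 to 7.09, for counting error only). The control level was 7.52-fold above the ENL KO floor of 3 counts taken over the group. That ratio leaves out the counting error of the 17 control counts, so it is no lower limit. HEL expressed the gene, at 96.4 and 99.6 CPM in the control and 87.4 and 88.3 CPM in the DOT1L KD. The 2 HEL groups did not overlap, and the change was -0.16 (SE 0.048, adjusted p 0.00420, edgeR); it was not called under upper-quartile scaling (-0.08, adjusted p 0.128) or by DESeq2 (adjusted p 0.0746).

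The makeup of the plastin family followed these differences. By length-scaled level, LCP1 made up 93.1% of plastin messenger RNA in the K562 control, 95.3% in DOT1L KO and 74.6% ± 2.87 (SD, n = 3) in ENL KO. PLS1 made up 6.77%, 4.70% and 25.4% in the same groups, while the summed level of the family went from 104.7 to 94.5 and 28.2 CPM per kb. The larger share of PLS1 in ENL KO thus came with an LCP1 level that was lower and a PLS1 level whose difference did not pass the test. In HEL the family was spread over all 3 genes, with LCP1 at 77.1%, PLS1 at 12.4% and PLS3 at 10.5% in the control and 79.4%, 10.7% and 9.94% in the DOT1L KD.

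FSCN1, which encodes the filopodial bundler fascin, was the most abundant bundler in K562 and changed in opposite directions in the 2 knockouts. It was at 1399.8 and 1393 CPM in the K562 control, at 1277, 1254 and 1218 CPM in DOT1L KO and at 1925, 1953 and 1730.2 CPM in ENL KO. The 3 groups did not overlap. The rise in ENL KO was 0.42 (SE 0.058, adjusted p 6.18e-05, edgeR), and DOT1L KO against ENL KO gave -0.58 (SE 0.051, adjusted p 3.80e-07, edgeR). The change in DOT1L KO was -0.16 (SE 0.057, adjusted p 0.0320, edgeR) and was not called without control 1 (adjusted p 0.118), control 2 (0.103), DOT1L KO 2 (0.0691) or DOT1L KO 3 (0.0903), nor under upper-quartile scaling (0.0680) or scaling by library size (0.0661). In HEL, FSCN1 was at 48.2 and 46.3 CPM in the control and rose to 60.5 and 66.3 CPM in the DOT1L KD, by 0.42 (SE 0.061, adjusted p 4.97e-08, edgeR). The HEL groups did not overlap.

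ESPN, which encodes espin, was higher in all 3 depleted groups. It was at 4.60 and 4.02 CPM in the K562 control, at 8.76, 9.62 and 10.8 CPM in DOT1L KO and at 10.9, 9.88 and 7.62 CPM in ENL KO. Both knockouts lay above the control without overlap, and their own ranges overlapped. ESPN rose by 1.17 in DOT1L KO (SE 0.16, adjusted p 4.82e-05, edgeR) and by 1.14 in ENL KO (SE 0.17, adjusted p 0.000102, edgeR). DOT1L KO against ENL KO gave 0.03 (SE 0.13, adjusted p 0.876, edgeR), which does not show that the levels are equal. In HEL the gene went from 1.52 and 1.74 CPM (19 and 22 counts) in the control to 22.6 and 20.9 CPM (285 and 257 counts) in the DOT1L KD. That difference, for which ESPN was picked, was 3.73 on the log2 scale (SE 0.17), rank 3 by size among 2964 higher genes with at least 5 CPM.

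COTL1, which encodes coactosin-like protein, a filament-binding protein that also binds 5-lipoxygenase, was 11.9-fold higher in ENL KO than in the control. COTL1 was at 39.9 and 41.7 CPM in the K562 control, at 33.6, 27.9 and 29.2 CPM in DOT1L KO and at 491, 492 and 472 CPM in ENL KO. The 3 groups did not overlap, and the ENL KO libraries stood far above both others. The difference in ENL KO, for which the gene was picked, was 3.57 on the log2 scale (SE 0.080), rank 7 by size among 2345 higher genes with at least 5 CPM. DOT1L KO against ENL KO gave -4.01 (SE 0.069), rank 18 among 3647 lower genes. COTL1 fell with DOT1L loss in both lines: the change was -0.44 in K562 DOT1L KO (SE 0.076, adjusted p 0.000316, edgeR) and -0.64 in HEL (SE 0.037, adjusted p 5.88e-21, edgeR). The HEL levels were 251 and 249 CPM in the control and 164 and 157 CPM in the DOT1L KD, without overlap.

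TNS4, also called cten, is a short tensin that lacks the actin-binding part of the others. TNS4 was at 35.6 and 34.6 CPM in the K562 control, at 2.22, 1.11 and 1.51 CPM (49, 33 and 32 counts) in DOT1L KO and at 41.0, 41.5 and 41.3 CPM in ENL KO. The DOT1L KO libraries lay far below all others, and the ENL KO libraries lay just above the control. The DOT1L KO difference, for which the gene was picked, was -4.47 on the log2 scale (SE 0.15), rank 8 by size among 3069 lower genes with at least 5 CPM. The ENL KO difference was 0.23 (SE 0.11, adjusted p 0.108, edgeR), and it was called with a replicate block (adjusted p 0.0406), with each deposited column as a library (0.0394) and with only the groups compared in the fit (0.0300). In HEL, TNS4 held 2 and 6 counts in the control and 9 and 8 in the DOT1L KD, a ratio of 2.15 (95% exact interval of the counts 0.878 to 5.74) so that no difference was detectable at this depth.

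TNS1, a full-length tensin of fibrillar adhesions, rose in every depleted group and most in DOT1L KO. It was at 6.04 and 6.24 CPM in the K562 control, at 37.9, 37.9 and 36.8 CPM in DOT1L KO and at 10.1, 10.8 and 10.7 CPM in ENL KO. The 3 groups did not overlap, and the spread within each was small beside the gaps. The rise was 2.61 in DOT1L KO (SE 0.092, adjusted p 1.19e-10, edgeR) and 0.77 in ENL KO (SE 0.10, adjusted p 3.57e-05, edgeR), and DOT1L KO lay above ENL KO by 1.84 (SE 0.075, adjusted p 1.34e-10, edgeR). HEL held 173 and 176 CPM in the control and 194 and 200.5 CPM in the DOT1L KD, a rise of 0.18 (SE 0.038, adjusted p 8.46e-05, edgeR) without overlap.

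TNS3, another full-length tensin, was a gene of HEL: it held 1942 and 1865 counts in the HEL control and 1637 and 1526 in the DOT1L KD. In CPM this was 155 and 148 against 130.1 and 124, a difference of -0.25 on the log2 scale (SE 0.042, adjusted p 1.17e-06, edgeR) without overlap. In K562 the counts were 0 and 1 in the control, 19, 31 and 19 in DOT1L KO and 4, 2 and 6 in ENL KO. All knockout libraries exceeded the control libraries, and DOT1L KO lay above ENL KO. The ratio of DOT1L KO to the control was 40.5 (95% exact interval of the counts 7.02 to 1621), and that of ENL KO to the control was 9.04 (1.34 to 387), for counting error only. DOT1L KO lay 4.47-fold above ENL KO (2.40 to 9.07). Because TNS3 passed the filter of the K562 fit through the group where it is high, no p-value is given for it there. The fitted difference of 5.02 on the log2 scale in DOT1L KO moved to 4.16 without control 1 and to 7.35 without control 2, and that of 2.90 in ENL KO moved to 2.04 and 5.24.

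The tensin family, counted with TNS2, had a different leading member in DOT1L KO than in the other K562 groups. By length-scaled level TNS4 made up 88.1% of tensin messenger RNA in the K562 control and 85.5% in ENL KO, but 7.81% in DOT1L KO (5.66% to 10.5% over the libraries). TNS1 made up 6.11% in the control and 72.3% in DOT1L KO (69.98% to 76.2%), and the summed level was 9.79 and 5.05 CPM per kb. These shares include the TNS4 difference that led to its choice. In HEL, TNS3 held 53.4% and TNS1 45.7% of the family in the control, and 46.0% and 53.0% in the DOT1L KD, with TNS4 at 0.211% and 0.463%.

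**Figure D3:**
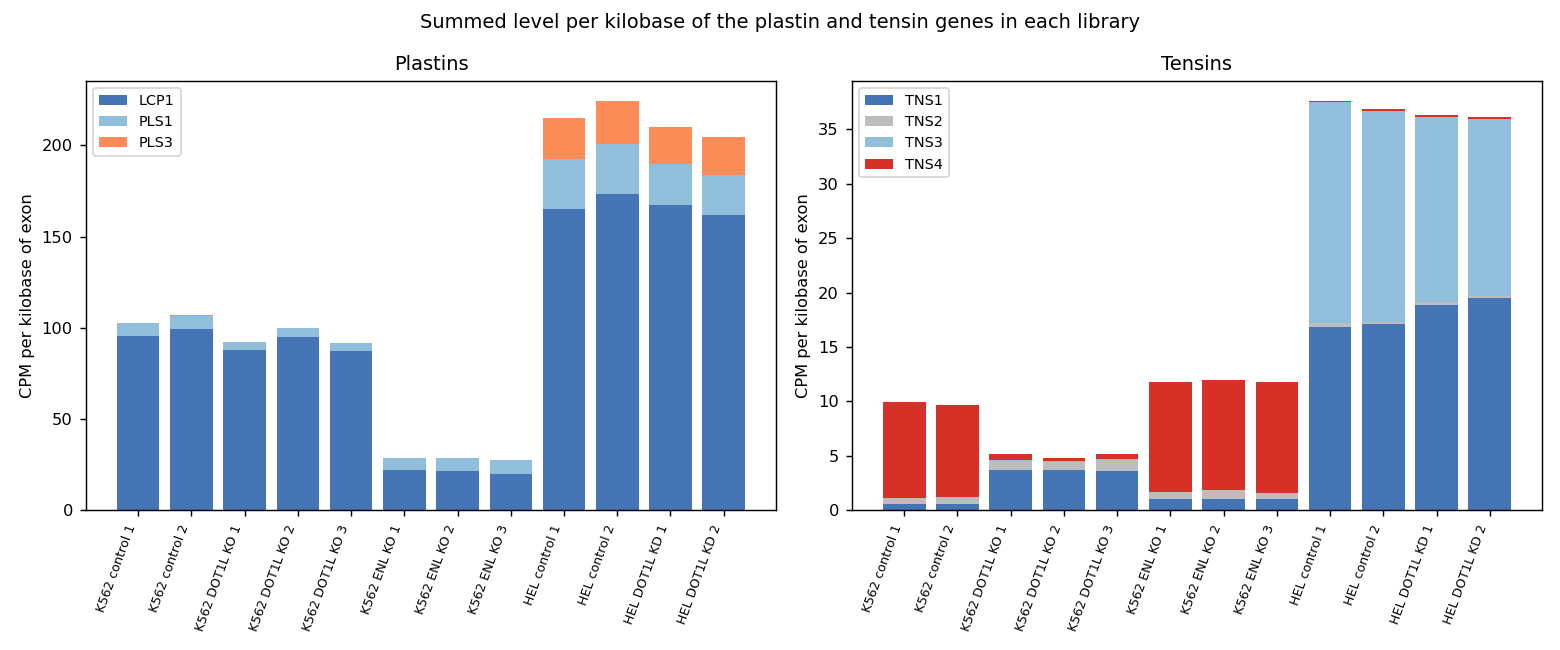
Stacked length-scaled levels (CPM per kilobase of exon) of the plastin and tensin genes, 1 bar per library, with bars starting at 0. The plastin sum has a mean of 28.2 in ENL KO against 104.7 in the K562 control, and TNS1 takes the place of TNS4 as the leading tensin in DOT1L KO.

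VIM, which encodes vimentin, was the most abundant of the 10 genes in both control groups and lower in each depleted group. It was at 1428 and 1477 CPM in the K562 control, at 716, 717 and 702 CPM in DOT1L KO and at 1005, 1027 and 957 CPM in ENL KO. In HEL it was at 1439 and 1447 CPM in the control and at 625 and 635 CPM in the DOT1L KD. Every depleted library lay below every control library of its line, and ENL KO lay between the control and DOT1L KO. The differences, given without a test because VIM was picked for its size of change, were -1.03 in DOT1L KO (SE 0.049), -0.54 in ENL KO (SE 0.049) and -1.20 in HEL (SE 0.028). By size they ranked 300 among the 3069 lower genes of DOT1L KO, 965 among the 2258 of ENL KO and 106 among the 3354 lower genes of HEL with at least 5 CPM.

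Markers of other cell types moved in the same libraries. The summed level of 8 myeloid markers was 90.3 to 90.5 CPM in the K562 control, 356 to 389 CPM in DOT1L KO and 67.0 to 73.0 CPM in ENL KO. Most of the difference in DOT1L KO was LYZ (34.0 to 310.1 CPM); SPI1 and ITGAM were higher too, CD68 was lower (26.6 to 9.40 CPM), and MPO, CD14 and CSF1R stayed under 1 CPM. That of 8 fibroblast markers was 14.2 to 15.1 CPM in the control, 129.9 to 137 CPM in DOT1L KO, and 15.6 to 17.6 CPM in ENL KO. In DOT1L KO it was made up almost wholly of COL1A1 (10.9 to 117 CPM) and COL3A1 (1.92 to 14.6 CPM), while PDGFRB was lower (1.69 to 1.00 CPM), DCN, PDGFRA and THY1 had a few counts, and LUM and FAP were at 0. The erythroid sum was 9668 to 10145 CPM in DOT1L KO, 8171 to 8314 CPM in ENL KO and 8767 to 9409 CPM in HEL DOT1L KD, above both controls. Its largest differences in CPM were in globins. HBZ went from 1027 to 2794 in DOT1L KO, HBE1 from 805 to 1847 in ENL KO and HBG2 from 2387 to 3940 in HEL. TFRC was lower in DOT1L KO and ENL KO (2314 to 1920 and 1935 CPM). EPB42 was lower in ENL KO (2.63 to 1.84 CPM) and HEL (247.7 to 225 CPM), and GATA1 in HEL (304 to 292 CPM). Every other marker had a higher mean than in the control of its line. The lymphoid sum, over 7 markers, was 54.0 to 55.6 CPM in the K562 control, 17.3 to 21.8 CPM in DOT1L KO and 62.2 to 73.2 CPM in ENL KO. The epithelial sum, over 8 markers, was 120.7 to 121 CPM in the control, 79.2 to 86.6 CPM in DOT1L KO and 92.5 to 98.7 CPM in ENL KO. In HEL, the control and the DOT1L KD held 158 to 161 and 137 to 138 CPM of myeloid markers, with MPO at 0, and 70.2 to 74.3 and 72.6 to 73.7 CPM of fibroblast markers. Of the HEL myeloid markers CD68 (52.4 to 35.1 CPM) and SPI1 (55.2 to 44.7 CPM) were lower and ITGAM was higher (4.26 to 8.96 CPM). The HEL fibroblast sums were almost wholly THY1 (67.6 and 71.0 CPM), while PDGFRB was at 4.58 and 2.04 CPM. COL1A1, COL3A1, DCN and LUM were at 0 in the HEL control. The HEL lymphoid sums were 2.38 to 2.47 and 2.62 to 3.17 CPM, and the epithelial sums 7.77 to 10.8 and 13.4 to 15.1 CPM. The part of these markers in the TNS1, TNS4 and VIM differences was not tested, and in bulk libraries fewer cells of a type and less RNA per cell cannot be told apart.

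The response to DOT1L depletion was compared between the lines as the interaction of line and depletion in 1 fit of 9 libraries, where 38.9% of 15367 genes were past the threshold (19.8% with the higher and 19.1% with the lower change in HEL). Of the 10 genes of the set 7 were past it, 5 with the higher and 2 with the lower change in HEL. PLS3 and TNS3, which these counts hold, had entered the fit through their counts in HEL, so their calls are no support. The counts also hold ESPN and TNS4, which were picked for the size of changes that this interaction compares. TNS4 had also entered the fit through its counts in K562. Their calls are no support either, and the share of the set says nothing about the group. TNS1 rose less in HEL than in K562, with a difference of -2.42 (SE 0.097, adjusted p 3.60e-14, edgeR), and the fitted difference of TNS3 was -5.21 (SE 0.57), with 1 count behind the K562 control. FSCN1 differed by 0.60 (SE 0.081, adjusted p 3.80e-06, edgeR), with a fall in K562 and a rise in HEL, and PLS1 by 0.39 (SE 0.10, adjusted p 0.00425, edgeR), with the smaller fall in HEL. The fitted difference of PLS3, with 17 counts in the K562 control and 10 in DOT1L KO, was 1.35 (SE 0.50) and is given as a description. It moved to 0.85 without K562 control 2 and to 1.00 without DOT1L KO 1. The PLS3 call was also lost without DOT1L KO 3, with no filter and by DESeq2.

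For COTL1 the lines differed by -0.18 (SE 0.097, adjusted p 0.150, edgeR), and the difference was called with a replicate block (0.0286) and without DOT1L KO 2 (0.0299). LCP1 differed by 0.09 (SE 0.072, adjusted p 0.347, edgeR). For the picked genes ESPN, TNS4 and VIM the fitted differences were 2.58, 5.58 and -0.15, given as a description, and TNS4 in HEL rests on 8 counts in the control and 17 in the DOT1L KD. The line goes together with knockdown against knockout, with the growth medium and with reads against fragments, and these cannot be told apart.

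Other genes of the same structures, from 4 lists, moved in both directions. Of 19 other actin bundlers and crosslinkers tested in K562, 9 rose, 6 fell and 4 were not past the threshold in DOT1L KO (median log2 fold change 0.23, all genes 0.01), and 6, 6 and 7 in ENL KO (median -0.09, all genes 0.00). In HEL 5 of 15 rose, 5 fell and 5 were not past it (median 0.01, all genes 0.01). Actins, profilins and proteins with the domain found in COTL1 gave 2 rises and 3 falls of 14 in DOT1L KO (median 0.01), 5 and 3 in ENL KO (median 0.14), and 4 and 4 of 13 in HEL (median 0.05). Focal adhesion genes, a list of tensin partners that also holds the tensin TNS2, gave 7 rises and 7 falls of 20 in DOT1L KO (median -0.05). They gave 5 and 7 in ENL KO (median 0.08), and 7 and 12 of 22 in HEL (median -0.19). Intermediate filament genes other than VIM, listed with PLEC for the linker plectin, gave 1 rise and 6 falls of 14 in DOT1L KO (median -0.12). They gave 5 and 3 in ENL KO (median 0.04), and 2 and 2 of 10 in HEL (median -0.01).

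Over the 4 lists 61.2% of 67 genes were past the threshold in DOT1L KO, 59.7% of 67 in ENL KO and 68.3% of 60 in HEL, where the shares of all genes were 51.1%, 41.0% and 55.0%. The lists were chosen with earlier results of these data known and were not matched to all genes by level. These shares therefore say nothing about cytoskeleton genes as a group.

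**Figure D4:**
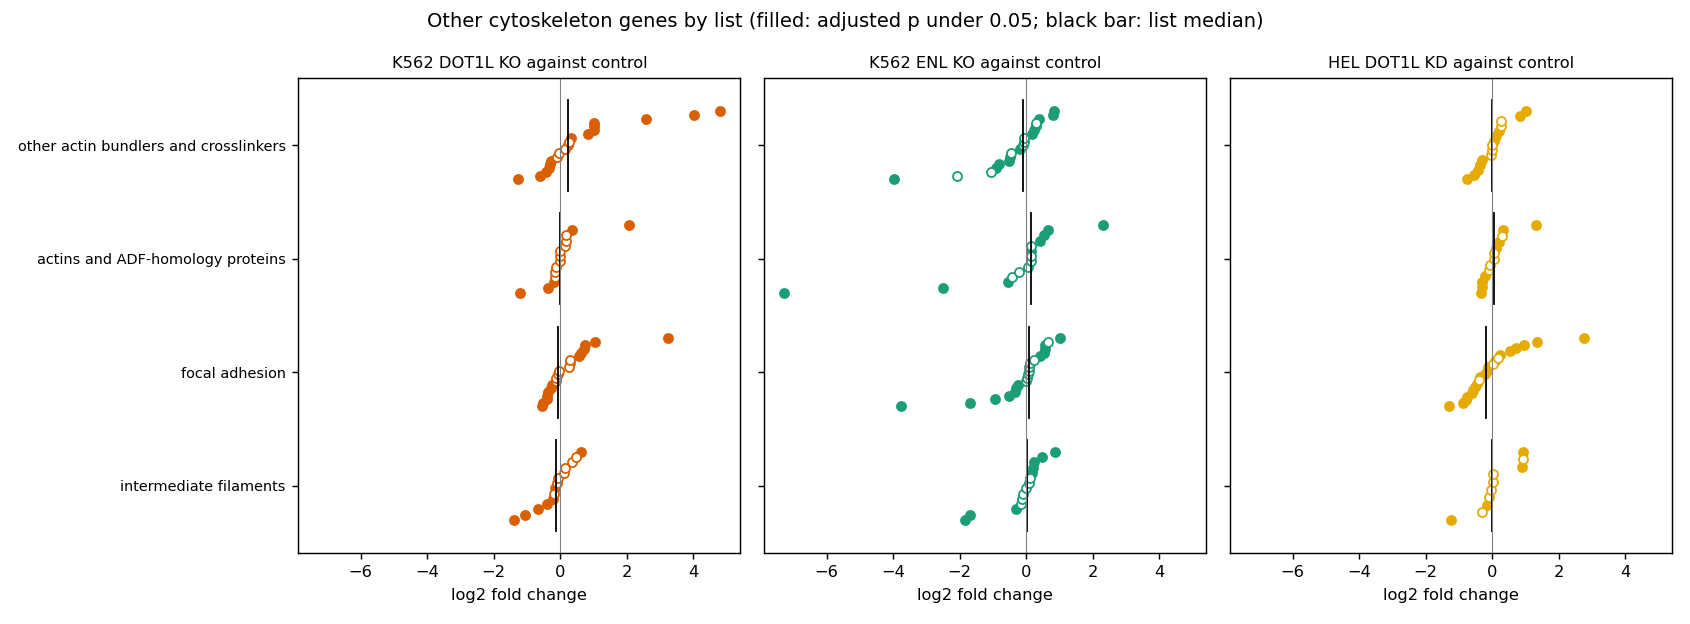
Log2 fold change of every tested gene of 4 cytoskeleton lists in the DOT1L KO and ENL KO of K562 and the DOT1L KD of HEL, 1 point per gene, filled where the adjusted p was under 0.05 in edgeR's quasi-likelihood test, with a black bar at the list's median. Most points lie between -1 and 1; of the genes with at least 5 CPM in a compared group, FERMT2 at 3.25 in DOT1L KO and MARCKS at -3.99 and ITGA4 at -3.75 in ENL KO lie farthest out, and points beyond them are genes of lower level.

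Among list genes with at least 5 CPM in a compared group, the largest rises in DOT1L KO were in FERMT2, an integrin activator (kindlin), from 0.916 ± 0.243 to 8.74 ± 0.901 CPM (SD, n = 2 and 3; log2 fold change 3.25, SE 0.20), in VIL1, the bundler villin (1.03, SE 0.10), and in MARCKS, an actin-binding substrate of protein kinase C (1.01, SE 0.11). The largest falls were in KRT10, a keratin, from 75.2 ± 9.47 to 28.9 ± 2.49 CPM (-1.38, SE 0.11), in CNN2, a calponin (-1.27, SE 0.078), and in DES, the muscle relative of vimentin (-1.06, SE 0.064). In ENL KO, MARCKS and VIL1 fell instead. MARCKS fell from 11.3 ± 0.269 to 0.707 ± 0.023 CPM (-3.99, SE 0.18), ITGA4, the alpha 4 integrin of blood cells, from 29.8 ± 0.570 to 2.26 ± 0.760 CPM (-3.75, SE 0.16), and VIL1 from 13.3 ± 0.503 to 7.05 ± 0.601 CPM (-0.91, SE 0.11). DLC1, a binding partner of tensins, rose by 1.03 (SE 0.070), DES by 0.87 (SE 0.063) and CNN1 by 0.85 (SE 0.11).

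By the same rule the rises in HEL included TWF1, the actin monomer binder twinfilin, from 19.4 ± 1.66 to 48.0 ± 3.09 CPM (SD, n = 2 each; 1.31, SE 0.082), and PXN, the adhesion adaptor paxillin (0.95, SE 0.17). FERMT2, which rose in DOT1L KO of K562, fell in HEL from 16.3 ± 0.039 to 6.63 ± 0.049 CPM (-1.30, SE 0.13). FERMT1, another kindlin (-0.87, SE 0.15), and TGFB1I1, a relative of paxillin (-0.80, SE 0.10), fell as well. The genes named from the lists were all past the threshold, without overlap between the groups.

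Over the 8 K562 libraries, the genes whose log2 CPM followed each picked gene most closely, among 10239 genes with at least 5 CPM, are given as a description. The libraries share the 3 groups, so a correlation mostly reflects the group means. COTL1 was followed by GMPR, ECM1 and CCND1 (Pearson's r 0.998 each), whose own ENL KO changes were 0.85, 1.39 and 2.01. LCP1 was followed by ROBO2, FN1 and ALDH1A1 (r 0.999 each), with ENL KO changes of -5.07, -4.49 and -6.29. TNS4 was followed by MGC4859 (r 0.999), ETV4 (0.998) and ZNF788P (0.997), with DOT1L KO changes of -2.24, -0.96 and -3.01. ESPN was followed by PCDH1 (r 0.990), ZNF219 (0.982) and TMEM63B (0.978), and VIM by STAT5A (0.998), CTSC (0.997) and SCARB1 (0.996).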

How the data were processed

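The authors deposited 2 gene tables, one holding K562 fragment counts and one HEL read counts, per the file headers, with exon positions and exonic lengths. The submitters' processing notes name fastp 0.13.1, Bowtie2 2.3.4.1, HISAT2 2.1.0, deepTools, featureCounts 1.6.1, hg38 and hg19, without saying which served which assay. Libraries were polyadenylated and strand-specific (dUTP), per the labels' protocols. Of 74 samples, 13 RNA-seq samples were used, and 61 of other assays were not analysed here. Columns 2 and 3 of the K562 control were identical in all 28131 genes and were counted as 1 library, which left 12 libraries. In other K562 replicate pairs chi-square divided by its degrees of freedom was 4.05 to 9.64. In HEL it was 1.45 for the control pair and 1.31 for the DOT1L KD pair.

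Genes were filtered with filterByExpr (minimum count 10, minimum total 15), scaled with TMM and tested with edgeR 4.0.16 (glmQLFit, glmQLFTest) in R 4.3.3 on whole tables, with separate fits for K562 (all 3 groups) and HEL. Adjustment was by Benjamini-Hochberg over all genes tested, and the SE was derived from the F statistic. Counts were simulated with few changed genes, unlike the data, and for K562 only the control and DOT1L KO groups were fitted. The K562 test recovered 88.9% of 99 genes changed by 1 on the log2 scale over 13897 genes, with 17 false calls. The HEL test recovered 89.0% of 100 over 12497 genes, with 3 false calls. Ratios of low counts have exact conditional binomial intervals (95%). Promoter windows and motif counts were taken from RefSeq, to which 26353 of 28131 symbols matched.

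The members and the gene lists were chosen with earlier results of these data known. Named from the lists are the up to 3 largest rises and falls of each comparison with a control that were past the threshold, had at least 5 CPM in a group and did not overlap; 1 gene that this rule names is not reported here. Alternatives were DESeq2 1.42.0, other scalings, no filter, each deposited column as a library, only the compared groups in the fit, a replicate block, and each library left out.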

Additional observations from a re-analysis of the deposited data

Results flagged for a closer look

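Among the 5 genes added as relatives, the response to DOT1L depletion differed between HEL and K562 past the threshold in PLS1, FSCN1 and TNS1. The test was edgeR's quasi-likelihood interaction, Benjamini-Hochberg adjusted, and 38.9% of all 15367 genes were past its threshold. As HEL minus K562 log2 fold change, the values were 0.39 for PLS1 (adjusted p 0.00425), 0.60 for FSCN1 (adjusted p 3.80e-06) and -2.42 for TNS1 (adjusted p 3.60e-14). PLS3 (1.35) and TNS3 (-5.21) were past it too, but their values are a description and their calls no support. Both entered the fit through their counts in HEL and rest on 17 and 1 counts in the K562 control. The PLS3 call was lost under several alternatives, and its value moved to 0.85 without K562 control 2.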

How the results depend on the processing

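Of 609 values of the genes recomputed under the alternatives, 567 kept their direction and side of the threshold, 23 lost a call, 11 gained one and 8 changed sign. The sign changes were in differences near 0. PLS1 in ENL KO (0.01) gave -0.0153 with upper-quartile scaling, -0.0079 with each deposited column as a library, -0.0351 with a replicate block, and -0.0613 to 0.0764 with each library left out. ESPN in DOT1L KO against ENL KO (0.03) gave -0.0945 to 0.137 with each library left out, and LCP1 in HEL (-0.04) gave 0.0331 with upper-quartile scaling. The number of all genes called in HEL was 6951 with edgeR and 4561 with DESeq2; the cause was not tested. The counts of members and of list genes stayed within 1.5 times of the reported count under every alternative run. Leaving out each library in turn gave 7 to 8 members called in DOT1L KO, 6 to 7 in ENL KO, 8 between the knockouts, 8 to 9 in HEL and 6 to 9 in the interaction. Replicate numbers are shared between groups. In K562 the deviations of same-numbered libraries correlated from 0.0927 to 0.68, with replicate 1 at 0.461 to 0.68, and those of different numbers from -0.591 to 0.431. Control columns 2 and 3 are identical, so the number 2 of the library kept is not settled, and the replicate block rests on it too. This library correlated at 0.312 with DOT1L KO 2 and 0.251 with DOT1L KO 3, and at 0.0927 with ENL KO 2 and 0.431 with ENL KO 3. In HEL these values were -0.0375 for the same number and 0.0375 for different numbers. Deviations were taken from the group mean, so those of a group of 2 libraries are equal and opposite. The 2 HEL values are therefore 1 value with its sign turned, and pairs with the K562 control mirror each other likewise. The numbers were not taken as pairs in the main fit, and whether same-numbered K562 libraries share a batch was not tested. With a replicate block the number of all genes called was 8340 in DOT1L KO (7305 without), 7021 in ENL KO (5863), 9605 between the knockouts (8606), 6903 in HEL (6951) and 6822 in the interaction (5980). Depth limits PLS3 and TNS3 in K562 and TNS4 in HEL, where a few counts decide the value.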
